A study of Mus musculus with 12 samples.

Results

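The genes described here are 10 genes of mouse chromosome 9 listed as lying close to Pgr, the gene for the progesterone receptor that was inactivated in the null mice: Cfap300, Pdgfd, Casp4, Casp12, Yap1, Birc2, Birc3, Trpc6, Dync2h1 and Qtrt1. They were found by symbol in the platform annotation and were read by 15 of the 45037 probe sets that are not controls, among 18193 genes with a symbol. The genes were selected on their place near Pgr with the genotype differences of these data, at 8 h and at 24 h, already known, so those differences are given as a description, with no test. The comparison asked whether such differences are the same at both times of hormone treatment.

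The samples were Affymetrix arrays of mammary gland RNA from female mice aged 10 weeks, all ovariectomized and all labelled BALB/c, 3 arrays in each of 4 groups and 12 in all. Groups were wild type or progesterone receptor null (null, from here on). All mice had 17β-estradiol (100 ng) alone for 24 h before progesterone (2.5 ug) was added to it, for 8 h or 24 h more. Thus no group went without progesterone, and the time under estradiol differed along with the time under progesterone. Each array held a pool of 3 mice, numbered 1 to 3 within its group. The labels do not describe the null allele, the strain it was made in or the number of backcrosses.

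A targeted allele is carried on a stretch of chromosome from the cell line in which it was made, and backcrossing to another strain removes that stretch only slowly close to the target. Genes near a targeted locus can therefore differ between null and wild type mice through inherited DNA as well as through loss of the targeted protein. The listed genes have unrelated roles. Pdgfd encodes a secreted growth factor, Casp4 and Casp12 inflammatory caspases, Birc2 and Birc3 the ubiquitin ligases cIAP1 and cIAP2 of tumour necrosis factor signalling, Yap1 the co-activator controlled by the Hippo pathway and Trpc6 a cation channel. Cfap300 serves motile cilia, Dync2h1 is the heavy chain of the motor of transport inside cilia, and Qtrt1 is a subunit of the enzyme that places queuine in transfer RNA.

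By the order of RefSeq protein-coding genes on chromosome 9 (GRCm38.p6), 9 of the 10 genes lay on one side of Pgr, at 1 (Trpc6), 3 (Cfap300), 4 (Yap1), 5 (Birc3), 6 (Birc2), 19 (Dync2h1), 21 (Pdgfd), 22 (Casp12) and 23 (Casp4) genes from it. Qtrt1 did not lie close: it was on the other side, 111 genes away. For the main fit, counts of genotype calls and of signs are therefore also given without it.

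The promoters of 4 genes with a probe set that separated the genotypes at both times are shown. Casp4 and Qtrt1 also separated them, but their promoters are not shown. Windows run from 250 bases before to 50 bases after the RefSeq start, in build GRCm38.p6 of the C57BL/6J genome. BALB/c bases may differ from these letters. Capitals mark the hexamer TGTNCT, on either strand, the core of the element that progesterone and glucocorticoid receptors share. That element was searched on both strands as GNACA and TGTNC with any trinucleotide between them, so its second arm can overlap a hexamer.
Cfap300, chr9:8042826-8043125, minus strand: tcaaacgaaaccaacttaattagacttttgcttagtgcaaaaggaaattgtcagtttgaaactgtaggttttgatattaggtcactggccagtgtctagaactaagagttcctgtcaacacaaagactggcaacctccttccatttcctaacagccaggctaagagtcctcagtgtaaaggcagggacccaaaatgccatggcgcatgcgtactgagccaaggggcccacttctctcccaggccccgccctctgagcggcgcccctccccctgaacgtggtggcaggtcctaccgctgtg
Trpc6, chr9:8543892-8544191, plus strand: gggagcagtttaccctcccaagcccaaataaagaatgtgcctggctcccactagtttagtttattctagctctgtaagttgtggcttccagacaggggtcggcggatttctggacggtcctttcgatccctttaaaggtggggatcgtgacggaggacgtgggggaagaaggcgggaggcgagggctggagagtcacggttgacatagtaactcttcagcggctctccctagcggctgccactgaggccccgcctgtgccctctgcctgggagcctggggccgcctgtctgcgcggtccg
Yap1, chr9:8004547-8004846, minus strand: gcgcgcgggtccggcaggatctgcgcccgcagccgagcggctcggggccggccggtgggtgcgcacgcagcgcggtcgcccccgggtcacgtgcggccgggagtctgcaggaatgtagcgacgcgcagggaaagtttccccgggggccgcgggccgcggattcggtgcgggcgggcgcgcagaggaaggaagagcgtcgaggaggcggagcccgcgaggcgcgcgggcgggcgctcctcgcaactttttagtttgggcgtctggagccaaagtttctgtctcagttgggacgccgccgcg
Pdgfd, chr9:6168236-6168535, plus strand: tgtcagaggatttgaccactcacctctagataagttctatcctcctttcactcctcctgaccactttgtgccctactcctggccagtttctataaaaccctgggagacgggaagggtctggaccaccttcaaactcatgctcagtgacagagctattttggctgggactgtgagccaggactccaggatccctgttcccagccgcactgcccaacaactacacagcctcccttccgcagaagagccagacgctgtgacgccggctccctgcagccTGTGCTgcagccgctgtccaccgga
Of these 4 windows, that of Pdgfd held 1 hexamer and the other 3 held none. Of the 12 promoter windows of all 10 genes, 4 (of Casp12, Dync2h1, Pdgfd and Qtrt1) held a hexamer, against 50.5% of the 32851 promoters in the table. The full element was in 0 of the 12 promoter windows of the 10 genes and in 0.475% of all promoters. A match or its absence describes these letters only. The Yap1 window was the richest in G and C of the 4 (74.0%), with 49 CG dinucleotides, against 8 in Cfap300, 8 in Pdgfd and 17 in Trpc6.

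Values are the deposited log2 values, 1 unit being a 2-fold difference. A probe set was tested if it lay above its array's median on at least 3 of the 12 arrays, and called where limma's p, adjusted by Benjamini-Hochberg over the 23709 probe sets tested, was below 0.05. Of the 15 probe sets, 12 were tested, which represent 9 genes. Trpc6 was above the median on 2 arrays, and a pair of Pdgfd probe sets on 0 arrays, so these 3 were not tested with the filter. Array medians ranged from 5.84 to 5.91 and correlations within groups from 0.965 to 0.993. Markers were read as a check of the tissue. All 9 epithelial markers passed the filter, and so did all 6 white adipocyte markers found on the array, of 7 listed. Their means per array were 8.91 to 9.99 and 13.03 to 13.32. All 7 skeletal muscle and all 5 brown adipocyte markers passed too, so the check does not identify the tissue. Levels of different probe sets are not compared with each other. Pgr itself gave a divided picture, with a bright probe set whose wild type level at 8 h was 9.94 ± 0.06 against 8.89 ± 0.29 in the null (SD, n = 3), and a dim one at 4.87 ± 0.22 against 6.84 ± 0.07. At 24 h the bright one read 7.82 ± 0.29 against 7.46 ± 0.35, with overlap, and the dim one 4.28 ± 0.24 against 6.38 ± 0.17. The genotype difference of the bright one changed by -0.70 between the times (interval -1.30 to -0.10, adjusted p = 0.75 in limma, not called), and that of the dim one by -0.12 (-0.61 to 0.36). The dim one passed the level filter through the 6 null arrays alone. The third Pgr probe set was above the median on 0 arrays and read 5.33 ± 0.27 against 4.45 ± 0.26 at 8 h, without overlap, and 4.29 ± 0.41 against 4.02 ± 0.13 at 24 h, with overlap. The position of these probe sets relative to the null allele is not known here, so Pgr checks the genotype labels only in part.

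Cfap300 was the clearest of the genes higher in null glands. In wild type pools 1 to 3 its log2 value was 5.74, 6.01 and 6.12 at 8 h and 5.70, 6.17 and 5.88 at 24 h. In null pools it was 6.95, 7.39 and 7.24 at 8 h and 6.89, 6.95 and 6.93 at 24 h. Every null pool lay above every wild type pool, at both times. The wild type values lay near the array medians (5.84 to 5.91), and the probe set was above the median on 10 of 12 arrays. The genotype difference was 2.35-fold at 8 h (log2 -1.23, SE 0.15, wild type minus null) and 2.01-fold at 24 h (-1.0, SE 0.15).

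Trpc6, the gene next to Pgr, was also higher in null glands but at low signal, below the array median on 10 of 12 arrays, so its folds rest on values not shown to be above background. Its wild type pools read 4.71, 4.33 and 4.55 at 8 h and 4.46, 4.34 and 4.37 at 24 h. Its null pools read 6.10, 5.60 and 5.97 at 8 h and 5.07, 4.68 and 4.96 at 24 h. The groups did not overlap at either time, and the null pools were lower at 24 h than at 8 h without overlap. The null level was 2.57-fold the wild type level at 8 h and 1.43-fold at 24 h.

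Pdgfd, the growth factor gene, went the other way. Its bright probe set read 7.92, 8.22 and 8.70 in wild type pools at 8 h and 7.79, 8.26 and 8.58 at 24 h. The null pools read 7.16, 7.33 and 7.21 at 8 h and 6.99, 6.81 and 6.70 at 24 h. Wild type pools spread widely, yet the lowest stayed above the highest null pool at both times. The difference was 2.07-fold at 8 h (log2 1.05, SE 0.21) and 2.60-fold at 24 h (1.38, SE 0.21). Of the low Pdgfd probe sets, the lowest (2.94 to 3.91 over all arrays) had no overlap between genotypes at either time (1.56-fold and 1.44-fold higher in wild type), and the other overlapped at 8 h (1.21-fold) but not at 24 h (1.34-fold). All 3 Pdgfd probe sets thus had the higher mean in wild type at both times.

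Yap1 gave different answers from its 2 probe sets. The dimmer read 7.71, 7.56 and 7.59 in wild type pools at 8 h and 7.39, 7.03 and 7.25 at 24 h, against 7.26, 6.46 and 6.53 in null pools at 8 h and 6.01, 6.04 and 5.80 at 24 h. It was 1.83-fold higher in wild type at 8 h (log2 0.87, SE 0.18) and 2.41-fold at 24 h (1.27, SE 0.18), with no overlap. Null pool 1 at 8 h lay closest to wild type. The null values of the dimmer at 24 h lay near the array medians (5.84 to 5.91), and it was above the median on 11 of 12 arrays. The brighter read between 9.86 and 9.96 in wild type and 9.86 and 10.05 in null pools at 8 h, and 9.60 to 9.85 against 9.42 to 9.56 at 24 h. Its genotype difference was 1.02-fold at 8 h, with overlap, and 1.16-fold at 24 h, without. Within arrays, the dimmer minus the brighter was -2.28 ± 0.03 for wild type and -3.18 ± 0.34 for null pools at 8 h (log2, SD, n = 3), and -2.49 ± 0.16 and -3.55 ± 0.07 at 24 h. The annotation cites 1 transcript accession for both, and the probe sequences were not used here, so which part of the transcript each reads is not known. Pairs of probe sets of Casp12 and Birc3 did not part to this extent. The within-array gap of the Casp12 pair had group means of 0.44 to 0.60, and that of the Birc3 pair 2.76 to 3.05. At 24 h the Casp12 gap was 0.44 ± 0.10 in wild type and 0.60 ± 0.05 in null pools, without overlap.

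**Figure D1:**
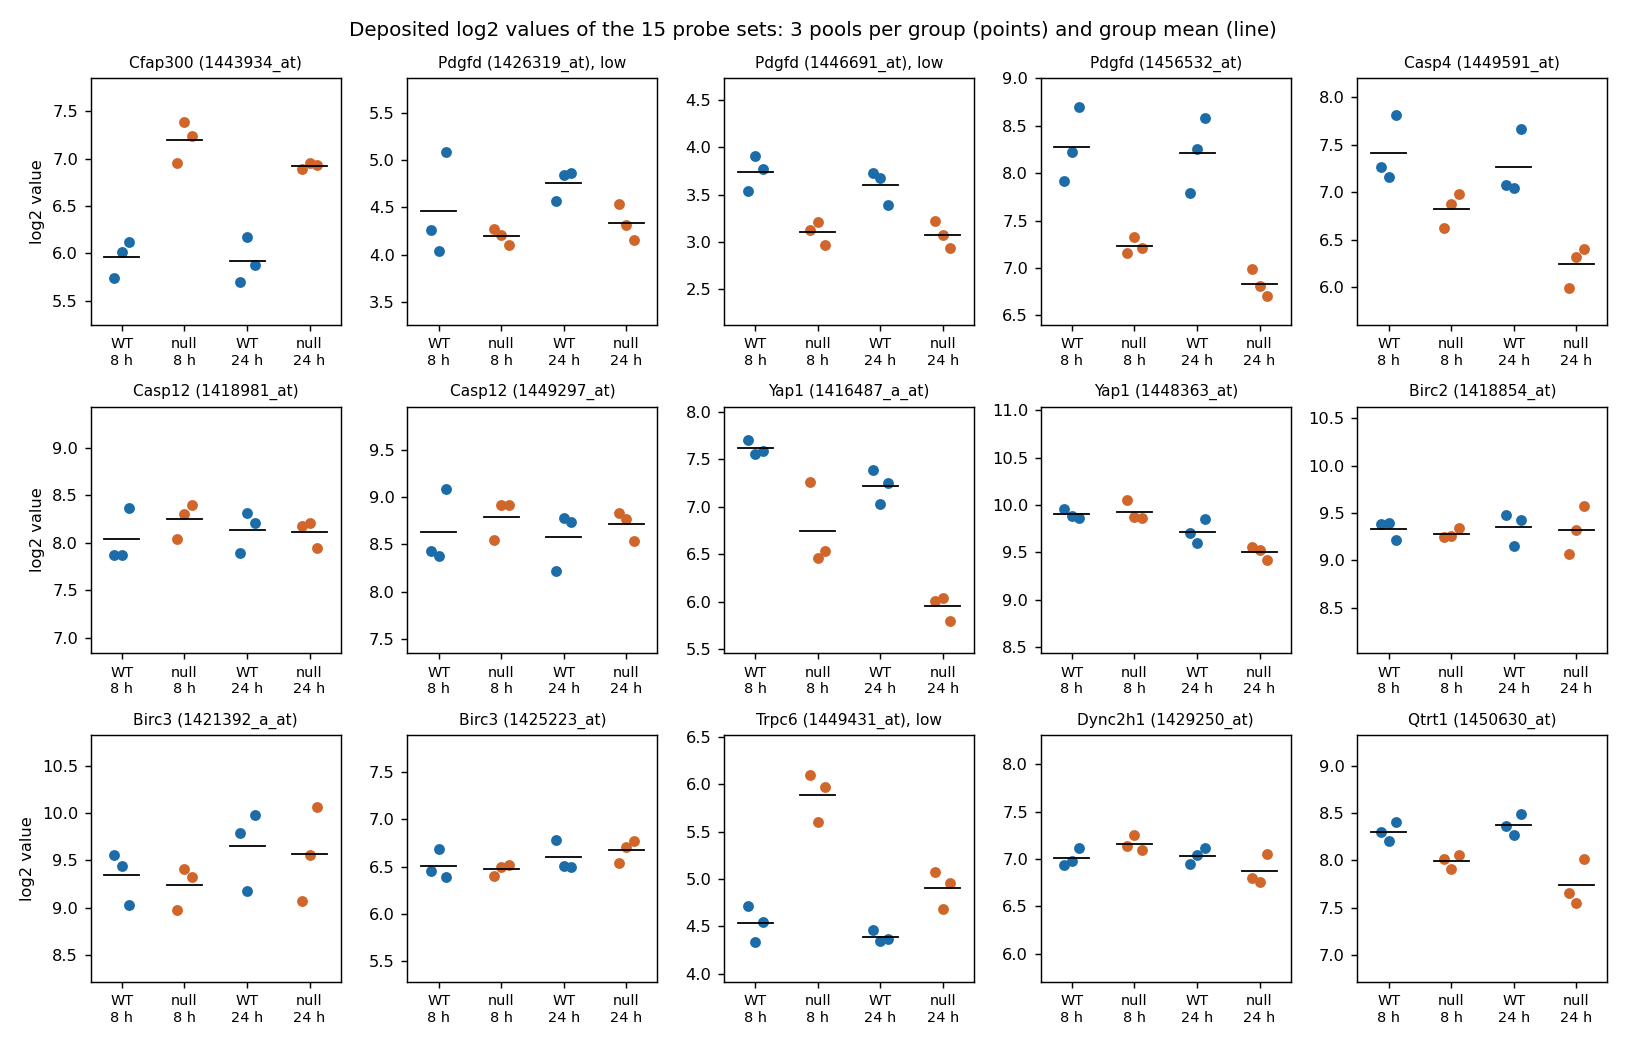
Deposited log2 values of the 15 probe sets (vertical axes, all of the same span), with 3 pools per group as points and the group mean as a line; blue marks wild type, orange null, and "low" marks probe sets below the level filter. Cfap300 and Trpc6 are higher in null pools, the bright Pdgfd probe set, Casp4, the dimmer Yap1 probe set and Qtrt1 are higher in wild type pools, and both Casp12 and both Birc3 probe sets overlap between genotypes at both times.

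Casp4, an inflammatory caspase that senses bacterial lipopolysaccharide in the cytosol, was higher in wild type. Its wild type pools read 7.27, 7.16 and 7.81 at 8 h and 7.08, 7.04 and 7.67 at 24 h. The null pools read 6.62, 6.88 and 6.98 at 8 h and 5.99, 6.32 and 6.40 at 24 h. Groups did not overlap at either time, though at 8 h wild type pool 2 and null pool 3 lay close. The difference was 1.50-fold at 8 h (log2 0.59, SE 0.21) and 2.04-fold at 24 h (1.03, SE 0.21). The adjacent Casp12 did not part by genotype on either probe set: the differences ran from -0.21 to 0.03 (log2) and the groups overlapped at both times. Casp1, the next caspase gene in the row and not among the 10, was 1.39-fold and 1.41-fold higher in wild type (SE 0.19) and was not called. It was named after its values were seen.

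Qtrt1 read 8.30, 8.20 and 8.41 in wild type pools at 8 h and 8.36, 8.27 and 8.49 at 24 h. Its null pools read 8.01, 7.91 and 8.06 at 8 h and 7.66, 7.55 and 8.02 at 24 h. The groups did not overlap at either time, with wild type 1.24-fold higher at 8 h (log2 0.31, SE 0.12) and 1.55-fold at 24 h (0.63, SE 0.12).

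The remaining genes stayed close to equal between genotypes. Birc2 lay between 9.07 and 9.57 on all 12 arrays, with differences of 0.05 and 0.03 (log2, SE 0.13). The brighter Birc3 probe set ranged from 8.98 to 10.06 and the other from 6.39 to 6.78, with differences from -0.07 to 0.11. Dync2h1, between 6.76 and 7.25, differed by -0.14 at 8 h and 0.17 at 24 h (wild type minus null, SE 0.10), with overlapping groups. Among the listed genes in chromosome order, Birc3, Birc2 and Dync2h1 formed a run between Yap1, which parted on its dimmer probe set, and Pdgfd. Casp12 lay between Pdgfd and Casp4.

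Of the 12 tested probe sets, 3 were called at 8 h (Pdgfd and Yap1 higher in wild type, Cfap300 higher in null), where 3.07% of all tested probe sets were called, 1.54% in each direction. At 24 h 5 were called (Casp4, Pdgfd, Qtrt1 and Yap1 higher in wild type, Cfap300 higher in null), where 1.11% of all were called, 0.873% higher in wild type and 0.232% lower. Without Qtrt1, 2 of 11 were called higher in wild type and 1 lower at 8 h, and the 24 h count was 4 of 11. The same 3 probe sets, of Cfap300, Pdgfd and Yap1, were called in 1 direction at both times, against 0.472% of all tested probe sets. Groups did not overlap in 1 direction at both times for 5 of the 12 tested probe sets, against 5.50% of all tested, and for 7 of all 15, against 3.65% of all probe sets that are not controls. Qtrt1 is in both of these counts. Without the level filter, 5 of the 15 were called at 8 h, where 1.59% were called. Since the genes were chosen with these contrasts in view, the counts describe them and no more. The 8 h count became 1 on leaving out any of 4 arrays of that time: pools 2 and 3 of either genotype. The 24 h count became 3 on leaving out any of 5 arrays: wild type pools 1 and 3 and null pools 1 and 2 of that time, and wild type pool 1 of 8 h.

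**Figure D2:**
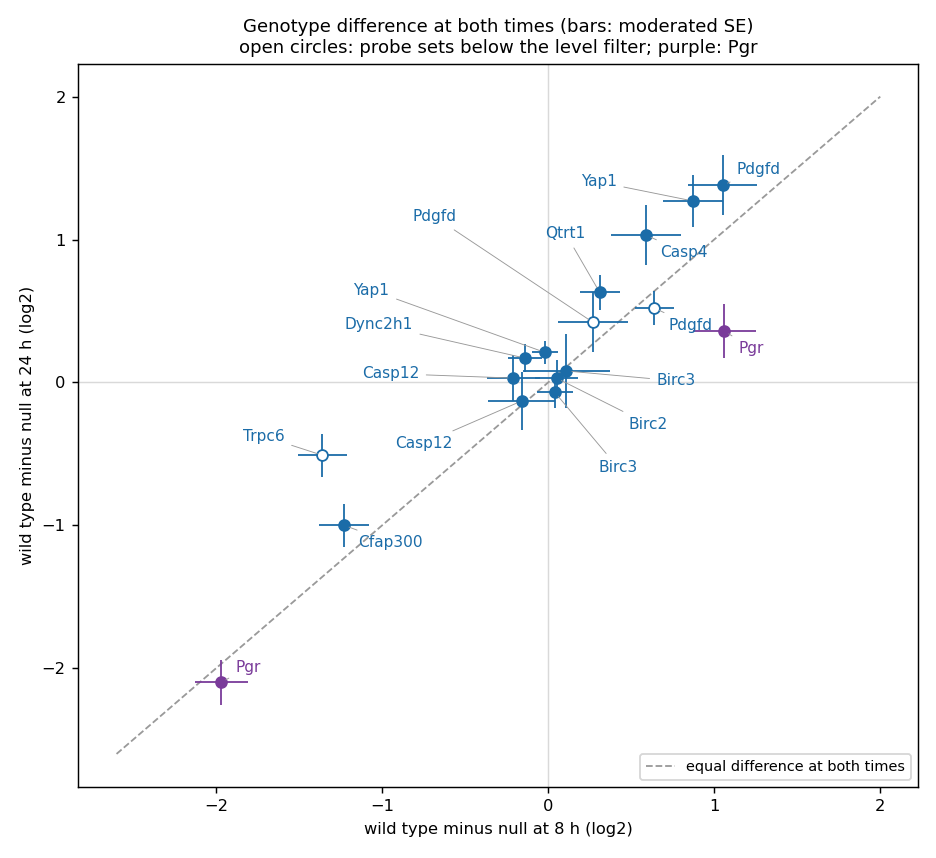
Genotype difference (wild type minus null, log2) at 8 h on the horizontal axis and at 24 h on the vertical axis for each probe set, with moderated standard errors as bars; open circles are probe sets below the level filter and purple marks the tested Pgr probe sets. The bright Pdgfd probe set, the dimmer Yap1 probe set, Casp4 and Qtrt1 lie above the dashed line of equal difference, and so do Cfap300 and Trpc6, whose differences are negative.

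The question of constancy was addressed by the change of the genotype difference from 8 h to 24 h. limma called 0 of the 12 tested probe sets, with 1 at an unadjusted p under 0.05, and 0.143% of all probe sets were called. Over all 23709 tested, 1344 had an unadjusted p under 0.05 for this contrast. This contrast is made from the same values as the genotype differences, so it is not independent of how the genes were chosen. A missed call does not show that the differences were equal: the 95% intervals reached from 0.26 to 0.80 (log2) on either side of the estimate. For Cfap300 the change was 0.23 (interval -0.23 to 0.69), for the bright Pdgfd probe set 0.33 (-0.31 to 0.97), for the dimmer Yap1 probe set 0.40 (-0.17 to 0.97), for Casp4 0.44 (-0.20 to 1.07) and for Qtrt1 0.32 (-0.05 to 0.69). Each interval included no change, and for Casp4 its upper end was a 2.11-fold change.

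Of the 12 tested probe sets, 9 had a change above 0, with a median of 0.24 (log2), against 52.1% above 0 and a median of 0.01 over all tested probe sets. Without Qtrt1, 8 of 11 were above 0, with a median of 0.23. A positive estimate means a lower null level relative to wild type at 24 h than at 8 h. None of these estimates passed the test. Dync2h1 had the 1 unadjusted p under 0.05 (change 0.31, SE 0.14, adjusted p = 0.88 in limma). Trpc6, in a fit without the level filter, had a change of 0.85 (interval 0.39 to 1.31), and its adjusted p of 0.34 in limma did not pass, where 0.0666% of 45037 probe sets were called. Of the 15 probe sets, that of Trpc6 had the estimate farthest from 0. Of 9 epithelial markers, 0 were called in limma for this change and 8 had an unadjusted p under 0.05, with a median of 0.66, above 0 like that of the listed genes. Of all genes tested, 6.21% had an unadjusted p under 0.05 for it. The genotype difference of the 9 markers had a median of 0.03 at 8 h and 0.86 at 24 h. Their part in the values of the listed genes was not tested. The 3 Pdgfd probe sets did not share a sign, with changes of 0.33, 0.15 and -0.12, the last 2 from low probe sets.

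**Figure D3:**
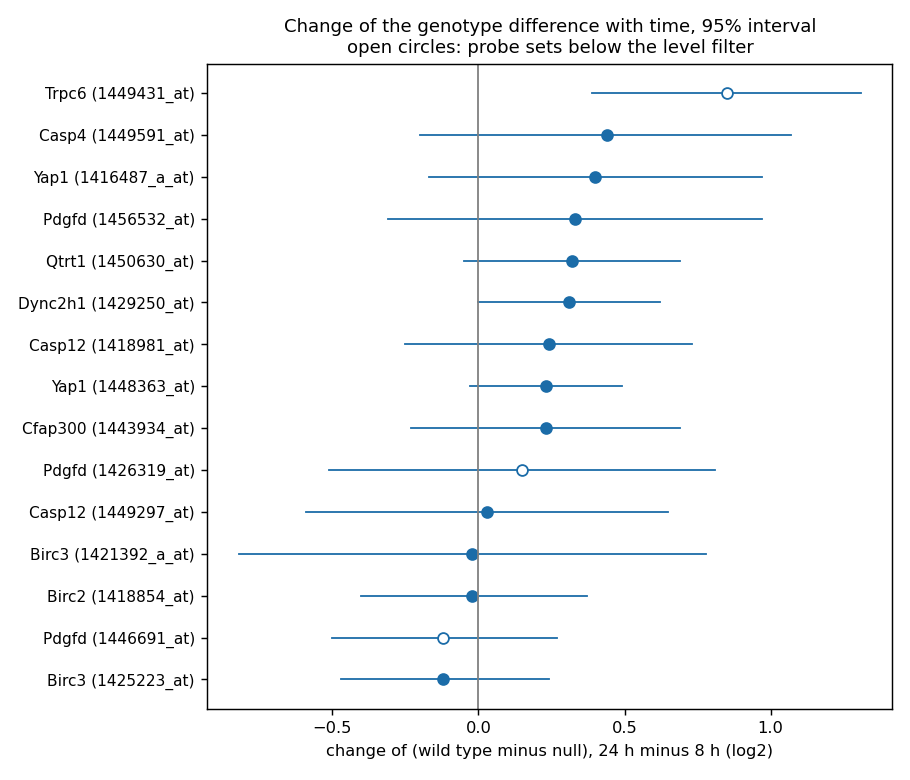
Change of the genotype difference between 8 h and 24 h (log2, 24 h minus 8 h) for the 15 probe sets, with 95% intervals from limma; open circles come from a fit without the level filter. The interval of Trpc6 lies above 0 (0.39 to 1.31), and those of Casp4, Pdgfd, Yap1, Qtrt1 and Cfap300 include 0.

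Within each genotype, time was then compared. These contrasts use the same arrays as the genotype differences, so they too are not independent of how the genes were chosen. That holds for their calls and for their counts of signs. In wild type glands limma called 0 of the 12 probe sets between 8 h and 24 h, with 1 at an unadjusted p under 0.05, against 5.22% of all probe sets called. Over all 23709 tested, 5097 had an unadjusted p under 0.05. The 12 estimates ran from -0.40 (the dimmer Yap1 probe set) to 0.31 (the brighter Birc3 probe set), with a median of -0.01. For Cfap300, Pdgfd, Casp4 and Qtrt1 the estimates were -0.04, -0.07, -0.15 and 0.07, each smaller than its SE (0.15, 0.21, 0.21 and 0.12).

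In null glands both Yap1 probe sets fell between 8 h and 24 h. The dimmer fell 1.74-fold (log2 -0.80, SE 0.18, n = 3 per group, adjusted p = 0.036 in limma) and the brighter 1.34-fold (-0.42, SE 0.08, adjusted p = 0.021). Every null pool at 24 h lay below every null pool at 8 h on both. The wild type pools of both also did not overlap between the times and were lower at 24 h (log2 -0.40, adjusted p = 0.24, and -0.19, adjusted p = 0.23, not called). The difference between the genotypes in this change is the change of the genotype difference given above, which was called for neither. These were the 2 called of 12, where 4.40% of all tested probe sets were called, 3.59% lower at 24 h. No label pairs pools across groups, though deviations of same-numbered null arrays from their group means correlated. With the pool number as a block over all 4 groups, 3 of the 12 were called. These were both Yap1 probe sets (adjusted p = 0.017 and 0.019 in limma) and Casp4 (-0.59, adjusted p = 0.026). That fit called 1667 of 23709 in place of 1044. With the block set within genotype the same 3 were called (0.026, 0.027 and 0.011 for Casp4). The dimmer was no longer called on leaving out any null 24 h pool (adjusted p of 0.055, 0.092 and 0.096 for pools 1 to 3), the third null 8 h pool (0.068) or, of the wild type 8 h pools, the first or the second (0.055 and 0.056). The brighter was no longer called on leaving out any null 8 h pool (0.053, 0.051 and 0.061) or null 24 h pool 2 or 3 (0.068 and 0.065), or after quantile normalization (0.052). Both calls were lost with only the null arrays in the fit (0.11 and 0.062). Of the 12 estimates in null glands 9 were below 0, with a median of -0.26, against -0.03 over all probe sets. Without Qtrt1, 8 of 11 were below 0, with a median of -0.27. Casp4 (-0.59, adjusted p = 0.13), the bright Pdgfd probe set (-0.40, adjusted p = 0.30), Dync2h1 (-0.29, adjusted p = 0.13), Cfap300 (-0.27, adjusted p = 0.34) and Qtrt1 (-0.25, adjusted p = 0.25) were not called without the block, and of these 5 the block called Casp4 alone. Trpc6, in the fit without the filter, fell 1.98-fold (log2 -0.99, SE 0.15, adjusted p = 0.007 in limma, where 2.06% of 45037 probe sets were called) and was at -0.14 in wild type (adjusted p = 0.68).

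Markers of cell types moved between some of these groups. In bulk tissue, fewer cells of a type and less RNA per cell cannot be told apart. Of all 12004 genes tested, 3.01% were called for genotype at 8 h and 1.30% at 24 h. With time, 5.28% were called in wild type and 4.57% in null glands. The mean of 9 epithelial markers ranged from 9.38 to 9.67 in null pools at 8 h and from 8.91 to 9.16 at 24 h, and 2 of the 9, Cldn7 and Cdh1, fell in null glands. Between genotypes, Krt8 and Krt18 were 1.74-fold and 1.31-fold lower in wild type at 8 h, and Cldn7, Cldn3 and Cdh1 were 2.28-fold, 1.99-fold and 1.81-fold higher in wild type at 24 h, the time at which Casp4 and Qtrt1 were called. In wild type the mean of the 9 epithelial markers ranged from 9.25 to 9.65 at 8 h and 9.44 to 9.99 at 24 h. Of the 9, 2 (Cldn3 and Krt8) rose there, 1.42-fold and 1.39-fold (adjusted p = 0.033 and 0.037 in limma). The mean of 6 endothelial markers was 9.13 to 9.19 in null pools at 8 h and 8.84 to 9.04 at 24 h, and 2 of the 6 (Pecam1 and Kdr) fell. Between genotypes at 8 h, 5 brown adipocyte markers had means of 9.61 to 10.52 in wild type and 11.05 to 11.88 in null pools, with Ucp1 and Cidea called (3.91-fold and 3.16-fold lower in wild type). At 24 h 0 of the 5 were called. The mean of 7 skeletal muscle markers was 10.80 to 12.19 in wild type and 6.55 to 11.24 in null pools at 8 h, with overlap. Of the 7, 0 were called for genotype at either time. At 8 h the mean of 6 fibroblast markers differed little, at 12.64 to 13.07 and 12.46 to 13.02. Means of 7 macrophage markers were 10.16 to 10.81 and 9.76 to 10.48, and those of 6 lymphocyte and plasma cell markers 5.77 to 7.33 and 6.89 to 8.10. Of the latter, Igha and Jchain were 7.49-fold and 7.12-fold lower in wild type at 8 h, and Igha 4.10-fold lower at 24 h. In wild type, Igha and Jchain rose 2.44-fold and 8.65-fold between the times (adjusted p = 0.040 and 0.009 in limma). Vwf, an endothelial marker, was 1.78-fold higher in wild type at 8 h. The part of these markers in the values of Yap1, Pdgfd, Casp4, Qtrt1, Cfap300 and Trpc6 was not tested.

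The other genes around Pgr were then read by gene order. Because the listed genes were taken out, and were picked with their differences known, a low count among the rest is partly fixed by that removal. Among the 30 protein-coding genes on each side of Pgr there were 51 that were neither listed here nor Pgr, of which 31 were tested by their brightest probe set. limma called 0 of the 31 at 8 h (4 at an unadjusted p under 0.05), 0 at 24 h (2), 0 for the change with time (0), and 0 between times in either genotype (4 in wild type, 5 in null). Of all genes tested, 16.3%, 13.8%, 6.21%, 22.1% and 21.2% had an unadjusted p under 0.05 in these contrasts, in the same order. Their genotype differences ran from -0.74 to 0.47 at 8 h and from -1.03 to 0.50 at 24 h, with medians of -0.01 and 0.02. Arhgap42, the gene that adjoins Pgr on the side away from Trpc6, was 1.23-fold higher in wild type at 8 h (adjusted p = 0.12) and 1.32-fold at 24 h (adjusted p = 0.06), and was named after its values were seen.

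With the listed genes put back, 39 genes within 30 steps of Pgr were tested, each by its brightest probe set, the brighter for Yap1. Of the 39, 2 (5.13%) were called at 8 h, Pdgfd and Cfap300, where 3.01% of all 12004 genes tested were called. At 24 h 3 (7.69%) were called, Casp4, Pdgfd and Cfap300, where 1.30% of all genes were called. For the change with time 0 of the 39 were called, where 0.133% of all genes were called. An unadjusted p under 0.05 was found for 1 of the 39, against 6.21% of all genes. The genes that were called are listed ones, chosen with these contrasts known, so the genotype counts describe the stretch and no more.

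**Figure D4:**
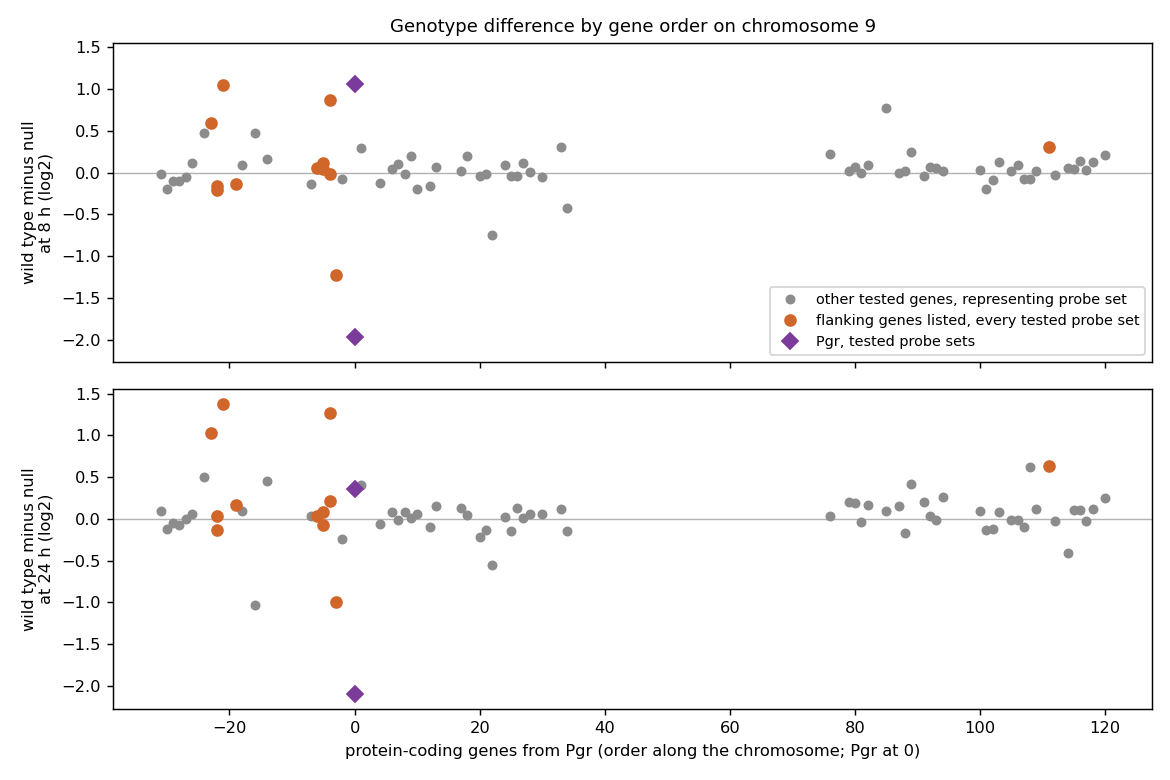
Genotype difference (wild type minus null, log2) at 8 h (top) and 24 h (bottom) against the number of protein-coding genes from Pgr in chromosome order; grey points are other tested genes by their brightest probe set, orange points every tested probe set of the listed genes, and purple diamonds Pgr. Most of the other genes shown lie nearer 0 than the listed genes that part by genotype, but not all. At 8 h Hephl1, 22 genes from Pgr, is at -0.74 (SE 0.33), and Col5a3, 85 genes away, at 0.77 (SE 0.15). At 24 h Mmp12, 16 genes from Pgr, is at -1.03 (SE 0.63), and Ap1m2, near Qtrt1 and 108 genes away, at 0.62 (SE 0.09). Qtrt1 sits far to the right at 111, and no tested gene lies between 34 and 76.

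Genes that work with the listed ones, wherever they lie, were read from lists. Of 19 tested partners, regulators and targets of Yap1, 0 were called for genotype at 8 h and 0 at 24 h (2 and 4 at an unadjusted p under 0.05), with medians of -0.02 and 0.09. Of all genes tested, 16.3% and 13.8% had an unadjusted p under 0.05. Amot, a scaffold protein that binds YAP1, rose in wild type (1.52-fold, SE 0.11, adjusted p = 0.014), 1 of 19 where 5.28% of all genes were called. Ccn1, a matricellular protein and known YAP1 target (2.19-fold, SE 0.27, adjusted p = 0.041), and Nf2, the upstream Hippo regulator merlin (1.25-fold, SE 0.08, adjusted p = 0.040), fell in null glands between 8 h and 24 h. Those are 2 of 19, where 4.57% of all genes were called. Of 8 PDGF ligands, receptors and related genes other than Pdgfd, Pdgfb was 1.31-fold lower in wild type at 8 h (SE 0.08, adjusted p = 0.025), 1 of 8 where 3.01% of all genes were called. In null glands Pdgfb fell 1.41-fold (SE 0.08, adjusted p = 0.009), and Pdgfrb, the receptor that PDGF-D binds, fell 1.48-fold (SE 0.11, adjusted p = 0.016) with time, 2 of 8 where the share of all genes was 4.57%. In lists of this size, 1 or 2 calls are no result about a list.

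Of 8 tested inflammatory caspase partners, Il18 was called, 1.40-fold higher in wild type at 24 h (SE 0.10, adjusted p = 0.049), and it rose 1.39-fold in wild type with time (adjusted p = 0.024). Each is 1 of 8, where 1.30% and 5.28% of all genes were called. limma called 0 of 15 partners of Birc2 and Birc3 in each contrast, with 0, 1, 2, 3 and 4 at an unadjusted p under 0.05 for genotype at 8 h and 24 h, their change, and time in wild type and null. The shares of all genes at that threshold were 16.3%, 13.8%, 6.21%, 22.1% and 21.2%. limma also called 0 of 3 other TRPC channels, with 0 at an unadjusted p under 0.05. Of 28 tested ciliary motor and transport genes, Wdr19 was 1.99-fold higher (SE 0.14, adjusted p = 0.0033) and Ift27 1.38-fold lower (adjusted p = 0.0069) in wild type at 8 h, 2 of 28 where 3.01% of all genes were called. Wdr19 fell 1.80-fold and Wdr35 rose 1.35-fold in wild type with time (adjusted p = 0.010 and 0.017), 2 of 28 against 5.28%. Of 10 transfer RNA modification genes, Pus7, a pseudouridine synthase, was 1.38-fold higher in wild type at 24 h (adjusted p = 0.048) and fell 1.35-fold in null glands (adjusted p = 0.033), and Adat2, an adenosine deaminase subunit, rose 1.64-fold in wild type (adjusted p = 0.042). Each is 1 of 10, against 1.30%, 4.57% and 5.28% of all genes.

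Among the tested probe sets of the listed genes, the bright one of Pdgfd had the largest mean genotype difference in size (1.21, log2, over both times). Over the 12 arrays, the probe sets of other genes whose values followed it most closely by Pearson's r were those of Acot1 (0.971), Serpinb8 (0.969), a probe set with no single symbol (0.969), Zfp664 (0.961) and Cd9 (0.956). The 4 named genes lie on chromosomes 12, 1, 5 and 6, and none is on chromosome 9. Among the listed genes its r was 0.90 with Casp4, 0.84 with Qtrt1, 0.82 with the dimmer Yap1 probe set and -0.77 with Cfap300, and between -0.35 and 0.43 with the other probe sets. The arrays share their groups, so these values describe this set of arrays.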

How the data were processed

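The authors' deposited table held log2 values of 45101 probe sets on 12 arrays, judged to be log2 and normalized between arrays from their range and nearly equal percentiles. MAS5 is named, without a role, in the submitters' processing notes. How background was corrected and probes summarized is not given in the sources used here. Precision is limited by the number of arrays. No scanner files were used here.

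Symbols came from the platform annotation (34945 with 1 symbol, 932 with several, 9160 with none). Gene order came from a RefSeq table of GRCm38.p6 and promoters from a RefSeq table of the same build, where all 10 genes matched. The 4 group means were fitted in limma 3.58.1 (R 4.3.3; lmFit, then eBayes with its trend option), leaving 8 residual degrees of freedom, without a block. The calculation was tested on simulated data. Where nothing says that pools came from separate litters or days, p-values measure only the spread between these pools.

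The genes, lists and tests were chosen with earlier results of these data known. Named were every probe set of the 10 genes and of Pgr, neighbours called in both genotype contrasts (0 found), up to 3 called genes per list and contrast, and the 5 probe sets most like the leading one. No label pairs pools across groups, so blocks by pool number were run as alternatives only. Deviations from group means correlated in all 3 same-numbered pairs of null 8 h and null 24 h arrays (r of 0.517, 0.264 and 0.384). For null 8 h and wild type 24 h arrays they were above 0 too (0.303, 0.0733 and 0.265). Pairs of unlike number were not compared, so whether pools were paired is not known. Alternatives covered the filter, prior, floor, normalization, weights, arrays in the fit, block and leaving out each array. Figures were drawn with matplotlib 3.10.9.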

Additional observations from a re-analysis of the deposited data

How the results depend on the processing

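The call of 0 of 12 probe sets for the change of the genotype difference, and of 0 for time in wild type, was unchanged under every alternative run and every array left out. For the change, only 0.143% of all probe sets were called, so 0 of 12 was likely in any fit. That this count was stable therefore does not show that the differences were equal. At 8 h the 3 genotype calls became 5 with no filter (out of 15, with Trpc6 and a low Pdgfd probe set added) and ranged from 1 to 3 with 1 array left out. At 24 h the 5 became 1 with only that time's arrays in the fit and ranged from 3 to 5 with 1 array left out. The 2 falls in null glands became 1 after quantile normalization, 5 with array weights and 0 with only null arrays, and ranged from 0 to 2 with 1 array left out. With 60 genes on each side of Pgr, 1 neighbour was called at 8 h (Chordc1) in place of 0. The cause was not tested, except that 2 groups in a fit leave fewer arrays. The sign of each listed probe set called as reported was kept in every alternative run.

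Over the whole table, array weights gave 4017, 685, 169 and 5775 calls in place of 729 (8 h), 262 (24 h), 34 (change) and 1044 (between times in null). Only 2 groups in the fit gave 71 at 24 h, 500 between times in wild type in place of 1238, 348 between times in null, and the stricter filter gave 21 for the change. The replicate block gave 482 at 24 h and 1667 between times in null, and 3 listed probe sets in place of 2 between times in null (Casp4 added). At 8 h it gave 4 in place of 3, again with Casp4 (adjusted p = 0.031 in limma). It changed no other call of a listed probe set. With 1 array left out the counts ranged from 320 to 889, 126 to 704, 12 to 45, 239 to 1328 and 232 to 1202. Signal limits Trpc6 and the low Pdgfd probe sets: most Trpc6 values and every value of those Pdgfd probe sets lay below the array medians, and none was checked against background here. Wild type values of Cfap300 and null 24 h values of the dimmer Yap1 probe set lay near the array medians and were not checked either.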
